A study of Homo sapiens with 12 samples.

Results

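NF-kB signalling was examined in HEL cells through 34 genes that encode the NF-kB subunits, their inhibitors, the kinases, receptors and adaptors that feed the pathway, its feedback inhibitors and 3 of its target genes. The genes were taken by symbol from a list chosen with earlier results of these data known. All 34 were among the 38551 usable genes of the count table, and 33 passed the filter on low counts (at least about 10 counts in as many libraries as a group holds, and 15 in all). NFKBIB had 0 or 1 count in every library and was not tested.

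HEL is a human erythroleukemia line with a mutated JAK2 kinase, here made to express the Cas9 nuclease under blasticidin at 15 µg/mL. Bulk RNA was sequenced from 12 libraries in 3 groups of 4. Control cells received a guide RNA against luciferase, which has no target in human cells, and knockout cells received sg2 or sg3, 2 guides against KDM4C. The KDM4C gene encodes a demethylase of histone H3. Guides were delivered by lentivirus in all groups, followed by 11 days of selection in 1.5 µg/mL puromycin, and the columns of the count table name the vehicle dimethyl sulfoxide for all 12. The sources name no single-cell clones, so each library was taken as a pool of transduced cells, and in such bulk RNA fewer cells that express a gene and less RNA per cell cannot be told apart. The study names its 4 replicates only at the vehicle step after selection and does not say whether they were separate before it. The spread that the p-values rest on may therefore be technical.

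NF-kB transcription factors are dimers of RELA, RELB, REL and the processed products of NFKB1 and NFKB2. In resting cells IkB proteins hold the dimers in the cytoplasm. In the canonical arm, tumour necrosis factor, interleukin-1 or Toll-like receptors act through adaptor proteins and the kinase MAP3K7 on the IKK complex (CHUK, IKBKB and the scaffold IKBKG), which marks IkB for destruction. In the non-canonical arm, TRAF2, TRAF3 and the cellular inhibitors of apoptosis keep the kinase MAP3K14 low, and release of MAP3K14 leads through CHUK to processing of NFKB2 and nuclear RELB-containing dimers. NF-kB dimers bind kB sites in DNA and induce several of their own regulators, among them NFKBIA, TNFAIP3, BIRC3, TRAF1, NFKB2 and RELB. In blood cells the pathway is best known for inflammatory gene expression and survival.

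Because NF-kB recognises kB sites, promoters were searched for them, and the 250 bases before the start site are shown for 7 genes that differ in site and response: NFKBIA, NFKBIZ, TNFAIP3 and BIRC3, which rose in the knockout cells and hold the kB consensus, NFKB1 and TRAF3, which hold it and did not rise, and NFKB2, which rose and does not hold it. Sequences are from RefSeq on GRCh38.p14, are written 5′ to 3′ on the strand of the gene, and have each match to the kB consensus in capitals.
NFKBIA (chr14:35404750-35404999, minus strand): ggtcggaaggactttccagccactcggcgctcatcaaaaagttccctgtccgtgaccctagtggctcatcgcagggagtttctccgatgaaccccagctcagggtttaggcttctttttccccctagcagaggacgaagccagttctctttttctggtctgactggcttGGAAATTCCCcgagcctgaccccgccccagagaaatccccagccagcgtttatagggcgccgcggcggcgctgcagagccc
NFKBIZ (chr3:101827740-101827989, plus strand): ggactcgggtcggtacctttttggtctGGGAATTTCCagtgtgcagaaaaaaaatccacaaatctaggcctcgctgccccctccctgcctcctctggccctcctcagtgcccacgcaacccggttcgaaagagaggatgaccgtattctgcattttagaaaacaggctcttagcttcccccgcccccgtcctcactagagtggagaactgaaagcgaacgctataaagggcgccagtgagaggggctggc
TNFAIP3 (chr6:137867009-137867258, plus strand): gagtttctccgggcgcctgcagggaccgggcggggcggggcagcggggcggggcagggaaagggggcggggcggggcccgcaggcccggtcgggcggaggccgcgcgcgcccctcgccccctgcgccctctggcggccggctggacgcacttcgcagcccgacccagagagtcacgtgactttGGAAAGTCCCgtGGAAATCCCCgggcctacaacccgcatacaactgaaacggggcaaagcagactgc
BIRC3 (chr11:102317234-102317483, plus strand): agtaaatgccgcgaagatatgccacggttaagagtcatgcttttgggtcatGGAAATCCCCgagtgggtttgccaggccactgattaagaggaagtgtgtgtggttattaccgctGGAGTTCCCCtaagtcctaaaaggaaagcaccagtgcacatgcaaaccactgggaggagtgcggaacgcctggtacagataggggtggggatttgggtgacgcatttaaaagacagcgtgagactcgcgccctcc
NFKB1 (chr4:102501109-102501358, plus strand): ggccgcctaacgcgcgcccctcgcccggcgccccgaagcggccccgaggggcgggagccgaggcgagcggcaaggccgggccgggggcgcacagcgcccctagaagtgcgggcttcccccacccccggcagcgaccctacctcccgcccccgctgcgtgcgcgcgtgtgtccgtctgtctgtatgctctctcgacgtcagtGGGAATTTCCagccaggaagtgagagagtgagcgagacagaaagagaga
TRAF3 (chr14:102777199-102777448, plus strand): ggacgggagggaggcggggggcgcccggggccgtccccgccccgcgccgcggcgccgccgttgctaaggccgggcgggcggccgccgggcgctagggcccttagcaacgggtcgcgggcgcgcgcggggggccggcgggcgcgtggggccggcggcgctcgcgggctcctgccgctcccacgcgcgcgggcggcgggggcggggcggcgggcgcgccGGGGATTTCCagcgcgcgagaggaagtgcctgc
NFKB2 (chr10:102393860-102394109, plus strand): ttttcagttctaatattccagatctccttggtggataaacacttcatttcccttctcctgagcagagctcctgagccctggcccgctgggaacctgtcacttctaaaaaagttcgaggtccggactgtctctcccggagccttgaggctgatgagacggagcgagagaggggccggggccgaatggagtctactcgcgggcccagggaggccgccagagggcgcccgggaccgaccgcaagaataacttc

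RefSeq promoters of 300 bases (250 before to 50 after the start) were found for 31 of the 34 genes. The 10-letter kB consensus, searched on both strands, stood in 7 of the 31 (22.581%): NFKB1, REL, NFKBIA, NFKBIZ, TRAF3, BIRC3 and TNFAIP3. Of all 35116 RefSeq promoters, 2075 held it (5.909%). The stricter form GGGANNTTCC stood in 5 of 31 (16.129%) and in 1.606% of all promoters, and any match to it is also a match to a looser consensus that allows any base at position 6 (8 of 31, 25.806%, against 11.266%). Of the 13 promoters of genes that rose in the knockout cells 4 held the consensus, of the 7 of genes that fell 1 did, and of the 10 of tested genes with no call 2 did. Positions of the matches ranged from -223 in NFKBIZ (first base of the match, counted from the start site) to -33 in TRAF3. TNFAIP3 held 2 matches (-67 and -55), BIRC3 2 (-199 and -135) and REL 2 that overlap by all but 1 base (-47 and -46). A match of letters is a description and no measured binding site, and a window without one says nothing of the factor. The start site is the one RefSeq gives and can differ from the first exon base in the count table.

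Total counts per library lay between 10031809 and 78966125, a 7.87-fold range. KDM4C itself measured 69.4 ± 1.72 CPM (counts per 1000000 after TMM scaling, as mean ± SD, n = 4) in control, 47.1 ± 6.62 with sg2 and 61.7 ± 1.86 with sg3. Every knockout library was below every control, with folds of 0.673 for sg2 and 0.890 for sg3. For sg3 the adjusted p was 0.0499 in edgeR's quasi-likelihood test, just under the threshold of 0.05. The study checked the deletion by Western blotting and PCR, and mRNA counts do not measure editing. All 14 erythroid and megakaryocyte markers of HEL were expressed, with a summed level of 5895 to 6659 CPM in control, 5966 to 6698 with sg2 and 6154 to 6546 with sg3. The T cell markers CD3D, CD3E and CD3G were under 0.03 CPM in every group mean, and the monocyte marker CD14 and the B cell marker MS4A1 stayed under 0.2 CPM in every library. Some other markers of these cells were measurable and higher in knockout, with folds of 2.61 for CSF1R, 1.35 for CD79A and 1.37 for CD79B. The T cell marker CD2 was measurable and changed little, with a fold of 0.947. The summed level of the 7 T cell markers, 2 of them tested, was 125 to 138 CPM in control against 174 to 195 CPM in knockout, carried by CD4. The sums of the 8 monocyte markers were 36.0 to 44.9 CPM in control and 45.3 to 54.0 CPM in knockout, carried by LYZ. Summed levels were likewise higher in knockout for the B cell (4.58 to 6.004 against 6.47 to 9.54 CPM), fibroblast (2.53 to 2.97 against 3.91 to 5.67 CPM, with COL1A2 at 0), epithelial (35.8 to 39.5 against 50.3 to 52.3 CPM) and endothelial lists (228 to 246 against 261 to 293 CPM). Within the endothelial list PECAM1, KDR and TEK were higher, whereas CDH5 was lower, with a fold of 0.749 and all 8 knockout libraries below the controls. The part of these markers in the results below was not tested. On the leading principal component (38.4% of variance over the genes tested) libraries 1 and 2 of sg2 lay at -3.25 and -0.269, between the controls (-27.6 to -22.8) and the other 6 knockout libraries (12.4 to 23.1). Other groups were split as well. On the next component sg3 libraries 3 and 4 (-10.0 and -24.0) and control library 4 (-18.6) lay apart from the remaining libraries (-3.36 to 9.14).

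Of the 33 genes tested, 14 rose and 7 fell in the average of both guides against control, and 12 were not called. A gene was called at an adjusted p below 0.05 in edgeR's quasi-likelihood test, after Benjamini-Hochberg adjustment across the 13996 genes tested. The 21 called genes are 63.6% of the 33. The background of all genes tested was 43.9% called, 21.6% higher and 22.3% lower. The genes that rose were the non-canonical subunits NFKB2 and RELB, the inhibitors NFKBIA and NFKBIZ, TAB2, the receptor TNFRSF1A, the adaptors TRAF1 and BIRC3, the feedback inhibitors TNFAIP3, TNIP1 and CYLD, and the targets ICAM1, TNFAIP2 and TNFAIP8. Those that fell were CHUK, the receptor TNFRSF1B, RIPK1, IRAK1, MYD88, TRAF2 and TRAF3. By role, the share called was 40% of 5 subunits, 66.7% of 3 tested IkB genes and 33.3% of 6 kinases and partners. It was 75% of 12 receptors and adaptors, 75% of 4 feedback inhibitors and 100% of 3 targets. These groups are small, and each share stands beside the background of 43.9%. The median log2 fold change over the 33 was 0.056, against -0.0046 over all genes tested. Among called genes the median size of the change was 0.33 on the log2 scale for NF-kB genes and 0.26 for all genes, and 8 NF-kB genes moved by 0.5 or more (24.2%, background 8.68%), 2 of them (TRAF1 and TNFRSF1B) by 1 or more (6.06%, background 1.84%).

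With sg2 alone 12 genes rose and 6 fell (54.5% of 33 called, background 28.3%, of which 14.5% higher and 13.9% lower). With sg3 alone 14 rose and 7 fell (63.6%, background 44.1%, of which 21.9% higher and 22.2% lower). Both guides were compared with the same 4 control libraries. Called in the average and with both guides were 12 genes that rose (background 13.2%) and 6 that fell (background 12.3%), and the values of these 18 are given for every library. For 11 of the 33 genes all 8 knockout libraries lay above all 4 controls (12% of all genes tested), and for 6 all 8 lay below (11.3%).

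**Figure D1:**
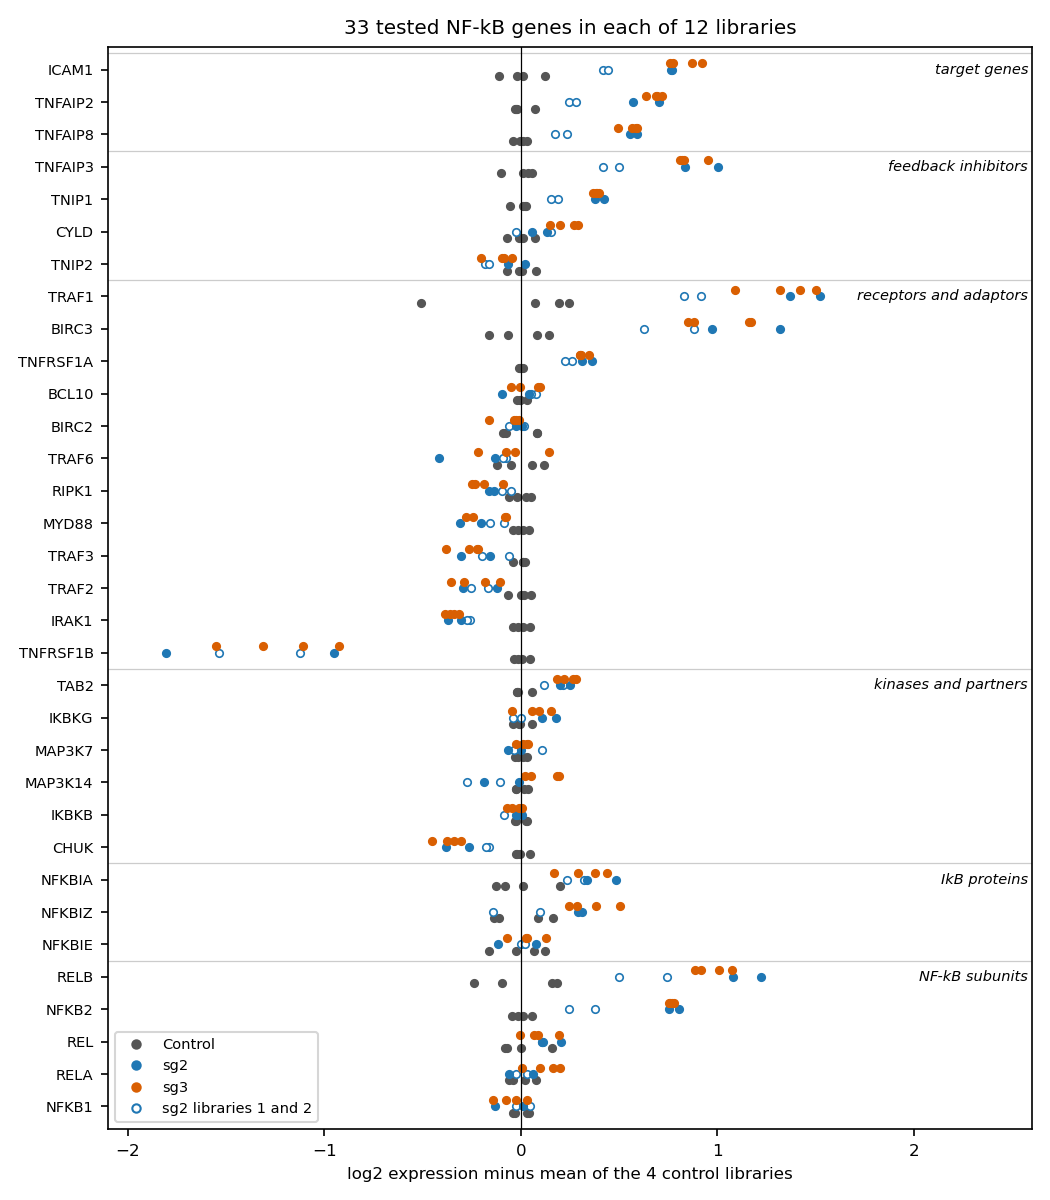
Log2 expression of the 33 tested NF-kB genes in each library (points), as the difference from the mean of the 4 control libraries (horizontal axis, log2 units), grouped by role. Open blue points are sg2 libraries 1 and 2, which lay closer to the controls than all of the other 6 knockout libraries in 10 of the 14 genes that rose.

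The NF-kB subunits changed unequally. NFKB2, which encodes the p100 precursor of p52 (chr10:102394110-102402529, plus strand, exon length 4639 bases in the table), measured 41.6, 40.7, 42.3 and 43.6 CPM in control libraries 1 to 4. It measured 54.6, 49.9, 71.1 and 73.4 CPM with sg2 and 71.8, 71.1, 72.3 and 71.0 CPM with sg3. All 8 knockout libraries lay above the controls, and sg2 libraries 1 and 2 were the lowest of them. The log2 fold change was 0.66 ± 0.080 (SE, adjusted p = 7.59e-06), 0.55 for sg2 and 0.77 for sg3. RELB (chr19:45001449-45038194, plus strand), the partner of p52 in the non-canonical arm, measured 5.73, 6.86, 5.19 and 6.99 CPM in control, 10.4, 8.71, 14.5 and 13.1 CPM with sg2 and 12.5, 13.0, 11.7 and 11.4 CPM with sg3. No knockout library overlapped the controls, and the lowest of the 8 were sg2 libraries 1 and 2. Its log2 fold change was 0.91 ± 0.12 (adjusted p = 2.01e-05), a 1.87-fold level.

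The 3 canonical subunits were not called in the average or with either guide. NFKB1 (chr4:102501266-102617302, plus strand), precursor of p50, measured 68.7, 65.6, 68.3 and 65.0 CPM in control, 65.8, 69.1, 67.5 and 61.1 CPM with sg2 and 63.4, 65.7, 60.6 and 68.3 CPM with sg3. The groups overlapped throughout, and the knockout average differed from control by -0.037 ± 0.040 on the log2 scale (adjusted p = 0.489). RELA (chr11:65653596-65662972, minus strand), the main activating subunit, measured 88.5, 93.5, 97.3 and 89.5 CPM in control, 94.3, 90.5, 96.3 and 88.4 CPM with sg2 and 92.5, 106, 98.6 and 103 CPM with sg3. Libraries 2, 3 and 4 of sg3 lay above the highest control, and all sg2 values lay below it. Its log2 fold change was 0.059 ± 0.041 (adjusted p = 0.255), and for sg3 alone it was 0.12 with an adjusted p of 0.0507, which fell below 0.05 with limma-voom (0.0465) and without control library 3 (0.0311), sg3 library 1 (0.0134), sg2 library 3 (0.0467) or sg2 library 4 (0.0433). REL (chr2:60881521-60931612, plus strand), a subunit prominent in lymphoid cells, measured 38.4, 40.4, 38.2 and 45.1 CPM in control, 43.8, 43.5, 46.5 and 43.6 CPM with sg2 and 42.4, 40.3, 43.0 and 46.3 CPM with sg3. Control library 4 was the highest control and lay within the knockout range. The log2 fold change of REL was 0.11 ± 0.048 (adjusted p = 0.0754). It passed the threshold without control library 4 (0.16, adjusted p = 0.0115) and, with 0.13, when sg3 library 2 was left out (adjusted p = 0.0435).

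**Figure D2:**
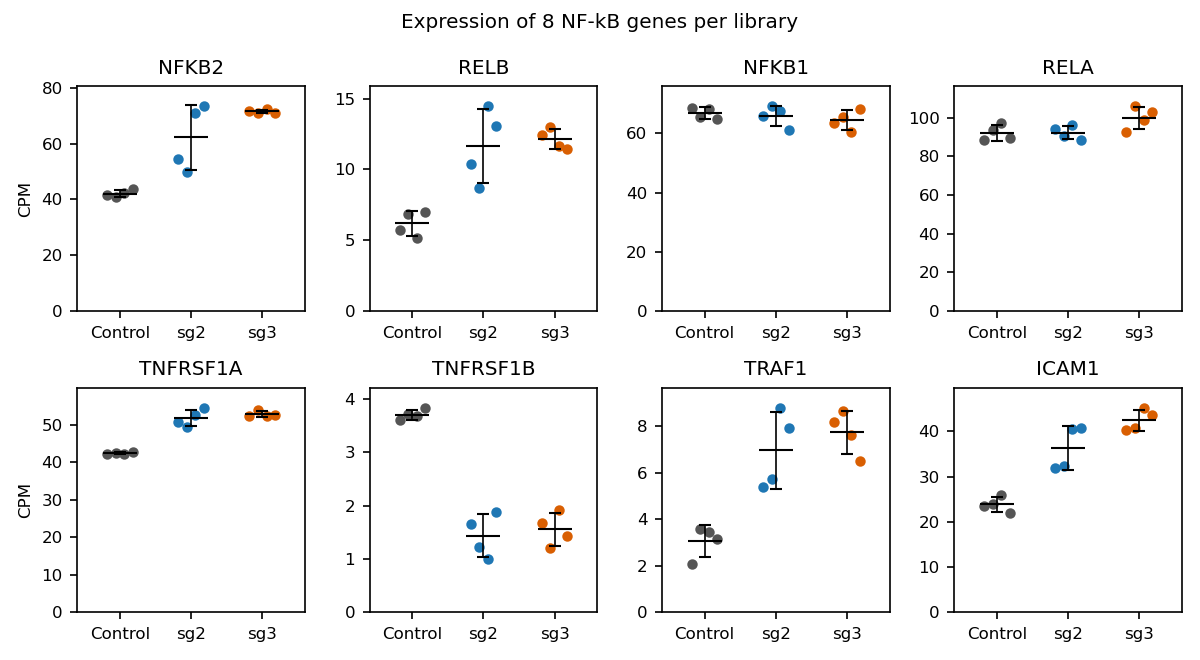
Expression in CPM (vertical axes, from 0) of 8 NF-kB genes in the control, sg2 and sg3 libraries. Points are libraries, horizontal lines group means and error bars the SD over 4 libraries. NFKB2, RELB, TNFRSF1A, TRAF1 and ICAM1 lay higher and TNFRSF1B lower than every control in each of the 8 knockout libraries, and NFKB1 and RELA overlapped between groups.

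Of the 4 IkB-family genes, 2 rose. NFKBIA (chr14:35401510-35404754, minus strand) encodes IkBα, the best-known inhibitor and itself an NF-kB target. It measured 17.2, 18.4, 21.0 and 16.7 CPM in control, 22.8, 21.5, 23.0 and 25.6 CPM with sg2 and 22.4, 24.7, 23.7 and 20.5 CPM with sg3. Control library 3 was above the lowest knockout library, so the groups overlapped slightly, and the log2 fold change was 0.33 ± 0.069 (adjusted p = 0.00117). NFKBIZ, a nuclear IkB protein that acts as a coactivator on some targets, measured 42.8 ± 4.41 CPM (SD, n = 4) in control, 47.3 ± 6.64 CPM with sg2 and 54.6 ± 4.47 CPM with sg3. It was called in the average (0.24 ± 0.079, adjusted p = 0.0225) and for sg3, but not for sg2 (0.12, adjusted p = 0.345). The call in the average was lost without control library 1 (0.21, adjusted p = 0.0713) or 3 (0.20, adjusted p = 0.0795), and without sg2 libraries 1 and 2 the sg2 change rose to 0.30 (adjusted p = 0.0243). Of its exon bases 4.65% are shared with NXPE3 on the same strand. NFKBIE (chr6:44258166-44265551, minus strand), which encodes IkBε, measured 15.7, 16.8, 14.3 and 17.4 CPM in control, 16.03, 16.3, 14.7 and 16.9 CPM with sg2 and 16.3, 16.4, 17.5 and 15.3 CPM with sg3. These values overlapped, and the log2 fold change was 0.012 ± 0.063 (adjusted p = 0.896).

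NFKBIB, which encodes IkBβ, had 3 counts over all 12 libraries. The table lists its exons on chromosome 19 and on 1 further sequence of the assembly, and on chromosome 19 they share 28.5% of their bases with CCER2 and 9.23% with SIRT2 on the other strand. Among protein-coding genes listed on more than 1 sequence, 704 of 1149 (61.271%) had fewer than 15 counts in all, against 4924 of 17856 (27.576%) of those on 1 sequence. A count near 0 for NFKBIB is therefore not read as absence of its RNA.

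Of the 6 genes of the IKK complex and the kinases above it, CHUK fell, TAB2 rose and 4 were not called. CHUK (chr10:100188298-100229610, minus strand), which encodes IKKα, the kinase shared by both arms, measured 60.9, 58.1, 58.0 and 58.8 CPM in control, 52.6, 52.2, 49.1 and 45.3 CPM with sg2 and 47.7, 46.5, 45.3 and 43.0 CPM with sg3. All 8 knockout libraries were below the controls and the log2 fold change was -0.30 ± 0.042 (adjusted p = 2.78e-05). IKBKB (chr8:42270727-42332653, plus strand), the IKKβ kinase of the canonical arm, measured 78.1, 78.5, 75.2 and 75.3 CPM in control, 72.3, 75.8, 77.03 and 75.5 CPM with sg2 and 73.0, 74.3, 77 and 76.3 CPM with sg3. Its values overlapped between groups (-0.034 ± 0.032, adjusted p = 0.411). IKBKG (chrX:154542212-154565046, plus strand), the scaffold NEMO, measured 24.97, 26.1, 24.4 and 25.02 CPM in control, 25.2, 24.5, 27.1 and 28.5 CPM with sg2 and 24.3, 26.8, 26.2 and 27.9 CPM with sg3. It was not called (0.056 ± 0.052, adjusted p = 0.409), and its counts are uncertain because a near-identical partial copy lies beside it in the genome.

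TAB2 (chr6:149217924-149411613, plus strand), the ubiquitin-binding partner of MAP3K7, measured 135, 129, 128 and 129 CPM in control, 141, 151, 149 and 155 CPM with sg2 and 148, 157, 152 and 158 CPM with sg3. Each knockout value was above the controls, and the log2 fold change was 0.22 ± 0.033 (adjusted p = 7.77e-05). MAP3K7 itself, the kinase TAK1, had one of 0.011 ± 0.035 (adjusted p = 0.828), with 92.4 ± 1.77 CPM in control, 92.6 ± 4.92 CPM with sg2 and 93.2 ± 1.82 CPM with sg3. MAP3K14, the NIK kinase of the non-canonical arm, measured 7.41 ± 0.153 CPM in control, 6.71 ± 0.54 CPM with sg2 and 8.03 ± 0.504 CPM with sg3. The guides took opposite signs for MAP3K14, -0.15 with sg2 (adjusted p = 0.214) and 0.11 with sg3 (adjusted p = 0.308). Neither was called, nor was the difference between them (0.26 ± 0.089, adjusted p = 0.217). The antisense gene MAP3K14-AS1 shares 1.78% of the exon bases of MAP3K14. The counting options name no strand setting, so counts at those bases may be affected.

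The 2 receptors for tumour necrosis factor moved in opposite directions. TNFRSF1A (chr12:6328771-6342076, minus strand), the death-domain receptor found on most cells, measured 42.4, 42.5, 42.1 and 42.8 CPM in control, 50.8, 49.5, 52.7 and 54.5 CPM with sg2 and 52.4, 54.0, 52.4 and 52.5 CPM with sg3. Controls agreed within 1 CPM of each other and all 8 knockout libraries lay above them, giving a log2 fold change of 0.30 ± 0.035 (adjusted p = 5.3e-06). TNFRSF1B (chr1:12166948-12209222, plus strand), the second receptor, which lacks a death domain and signals through TRAF2, measured 3.61, 3.71, 3.67 and 3.83 CPM in control. With sg2 it measured 1.65, 1.22, 0.997 and 1.88 CPM and with sg3 1.67, 1.21, 1.91 and 1.44 CPM. Knockout libraries were all below the controls but spread widely, and sg2 libraries 1 and 2 were not the highest of them. The log2 fold change was -1.31 ± 0.14 (adjusted p = 2.89e-06), -1.38 for sg2 and -1.24 for sg3, on counts of 10 to 293 per library.

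TRAF1 and BIRC3, which bind TRAF2 and are induced by NF-kB, rose, whereas TRAF2 and TRAF3 fell. TRAF1 (chr9:120902393-120929173, minus strand) measured 2.08, 3.57, 3.44 and 3.16 CPM in control, 5.39, 5.74, 8.77 and 7.90 CPM with sg2 and 8.17, 8.64, 7.60 and 6.48 CPM with sg3. Its log2 fold change of 1.22 ± 0.15 (adjusted p = 1.21e-05), a 2.33-fold level, was the largest rise among the 33 genes, and control library 1 was low beside the other controls. BIRC3 (chr11:102317373-102339403, plus strand), the ubiquitin ligase cIAP2, measured 1.94, 2.15, 1.81 and 2.25 CPM in control, 3.81, 3.18, 5.18 and 4.07 CPM with sg2 and 4.65, 4.67, 3.73 and 3.81 CPM with sg3. Each knockout library exceeded the controls, and the log2 fold change was 0.98 ± 0.14 (adjusted p = 2.74e-05). Its neighbour and paralogue BIRC2, which encodes cIAP1, was not called (-0.036 ± 0.043, adjusted p = 0.519), with 64.1 ± 4.26 CPM in control, 63.3 ± 1.47 CPM with sg2 and 61.5 ± 2.87 CPM with sg3.

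TRAF2 (chr9:136881933-136926615, plus strand), the adaptor that recruits both cIAP proteins, measured 38.2, 39.5, 36.5 and 38.5 CPM in control, 34.01, 31.98, 31.1 and 35.03 CPM with sg2 and 29.8, 31.2, 33.6 and 35.4 CPM with sg3. All 8 knockout libraries lay below the controls, and the log2 fold change was -0.23 ± 0.049 (adjusted p = 0.00136). Without sg2 libraries 1 and 2 the sg2 change of -0.21 became -0.20 and was not called (adjusted p = 0.0668). TRAF3 (chr14:102777449-102911500, plus strand), which bridges MAP3K14 to the ligases that degrade it, measured 58.1, 58.5, 56.0 and 58.0 CPM in control, 50.3, 55.3, 51.7 and 46.6 CPM with sg2 and 44.2, 49.4, 49.6 and 48.0 CPM with sg3. Knockout libraries were again below all controls (-0.22 ± 0.044, adjusted p = 0.000714). The sg2 call of TRAF3 (adjusted p = 0.02) was lost without control library 1 (0.0546), control library 2 (0.058) or sg2 library 4 (0.0726). TRAF6, the ubiquitin ligase of the interleukin-1 and Toll-like receptor branch, was not called (-0.11 ± 0.075, adjusted p = 0.261), with 17.2 ± 1.27 CPM in control, 15.2 ± 1.601 CPM with sg2 and 16.7 ± 1.74 CPM with sg3.

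Among the proximal adaptors and kinases, IRAK1, MYD88 and RIPK1 fell by small amounts. IRAK1 (chrX:154010507-154019984, minus strand), a kinase recruited to interleukin-1 and Toll-like receptors, measured 186, 189, 194 and 183 CPM in control, 157, 155, 145 and 152 CPM with sg2 and 144, 151, 149 and 146 CPM with sg3. Knockout and control libraries did not overlap, and the log2 fold change was -0.33 ± 0.031 (adjusted p = 8.13e-07). MYD88 (chr3:38138661-38143022, plus strand), the adaptor that brings IRAK kinases to these receptors, measured 39.8, 40.6, 38.5 and 39.1 CPM in control, 35.4, 37.2, 31.9 and 34.3 CPM with sg2 and 37.5, 32.5, 33.3 and 37.3 CPM with sg3. Every knockout library lay below every control, if by only about 1 CPM, and the log2 fold change was -0.18 ± 0.049 (adjusted p = 0.00774). Its sg2 call (adjusted p = 0.0287) was lost without control library 1 or 2 (0.0755 and 0.0859) or without sg2 library 3 or 4 (0.0954 and 0.0734). Its sg3 call (adjusted p = 0.0201) was lost without control library 1 or 2 (0.0539 and 0.0676) or without sg3 library 2 or 3 (0.086 and 0.0803). RIPK1, the kinase and scaffold below TNFRSF1A, measured 41.7 ± 1.45 CPM in control, 38.5 ± 1.32 CPM with sg2 and 36.5 ± 1.83 CPM with sg3, and fell in the average (-0.15 ± 0.041, adjusted p = 0.00835) and with sg3 but was not called with sg2 (-0.11, adjusted p = 0.11). BCL10, the adaptor of the CARD-containing complex below antigen receptors, was not called (0.027 ± 0.045, adjusted p = 0.663), with 29.2 ± 0.434 CPM in control, 29.6 ± 1.59 CPM with sg2 and 29.9 ± 1.50 CPM with sg3.

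Of the 4 feedback inhibitors 3 rose. TNFAIP3 (chr6:137866317-137883312, plus strand) encodes A20, a ubiquitin-editing enzyme that shuts off the signal to IKK. It measured 5.66, 5.24, 5.77 and 5.86 CPM in control, 7.98, 7.55, 11.4 and 10.1 CPM with sg2 and 10.1, 10.9, 10.0 and 9.93 CPM with sg3. All 8 knockout libraries lay above the controls, with sg2 libraries 1 and 2 the lowest, and the log2 fold change was 0.79 ± 0.10 (adjusted p = 1.3e-05), a 1.73-fold level. TNIP1 (chr5:151029943-151087685, minus strand), a ubiquitin-binding partner of A20, measured 97.1, 102, 103 and 102 CPM in control, 115, 112, 135 and 131 CPM with sg2 and 132, 133, 131 and 132 CPM with sg3. Libraries 1 and 2 of sg2 were again the lowest of the 8 knockout libraries, which all exceeded the controls, and its log2 fold change was 0.33 ± 0.045 (adjusted p = 2.07e-05). CYLD, a deubiquitinase of the same signal, measured 23.0 ± 0.936 CPM in control, 24.4 ± 1.37 CPM with sg2 and 27.0 ± 1.20 CPM with sg3. It was called in the average (0.16 ± 0.050, adjusted p = 0.0152) and with sg3, not with sg2 (0.089, adjusted p = 0.276), and the average call was lost without a filter on low counts (adjusted p = 0.0507), without control library 2 (0.0523) and without control library 3 (0.0545). TNIP2, a relative of TNIP1, was not called (-0.097 ± 0.045, adjusted p = 0.0938) except without sg2 library 4 (-0.11, adjusted p = 0.0437), and measured 44.9 ± 1.88 CPM in control, 42.0 ± 2.75 CPM with sg2 and 41.7 ± 1.93 CPM with sg3.

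All 3 target genes rose. ICAM1 (chr19:10271120-10286615, plus strand), an adhesion receptor for leukocyte integrins and a standard NF-kB target, measured 23.5, 23.9, 25.9 and 22.0 CPM in control, 31.8, 32.3, 40.5 and 40.7 CPM with sg2 and 40.3, 40.8, 45.2 and 43.5 CPM with sg3. Libraries 1 and 2 of sg2 lay between the controls and the rest, and the log2 fold change was 0.71 ± 0.070 (adjusted p = 1.17e-06). TNFAIP2 (chr14:103121175-103137439, plus strand), a gene induced by tumour necrosis factor, measured 57.4, 56.9, 57.2 and 61.1 CPM in control, 68.9, 70.6, 94.6 and 86.3 CPM with sg2 and 94.0, 90.3, 93.5 and 95.5 CPM with sg3. It rose by 0.57 ± 0.066 on the log2 scale (adjusted p = 5.3e-06). TNFAIP8 (chr5:119268759-119399688, plus strand), another gene induced by tumour necrosis factor and linked to cell survival, measured 45.7, 43.5, 44.5 and 45.1 CPM in control, 52.6, 50.5, 67.5 and 65.8 CPM with sg2 and 67.0, 67.4, 66.2 and 63.0 CPM with sg3. Its rise was 0.47 ± 0.065 (adjusted p = 2.57e-05), and all 3 targets had every knockout library above every control. Of the exon bases of TNFAIP8 6.78% and of TNFAIP3 7.16% are shared with genes on the other strand that had at most 49 counts in all.

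The next question was whether the guides differed. None of the 33 genes was called between sg3 and sg2 with edgeR's quasi-likelihood test (smallest adjusted p = 0.193, for TNFAIP2), and 9 had an unadjusted p below 0.05 (27.3%, against 15.0% of all genes tested). The counts called by limma-voom and DESeq2 were also 0, and the background of adjusted calls was 0.00714% of all genes tested, 1 gene. The genes with the smallest p values were TNFAIP2 (0.45 with sg2 and 0.69 with sg3, difference 0.23 ± 0.075), ICAM1 (0.59 and 0.83, difference 0.24 ± 0.079) and MAP3K14. TNFAIP2 and ICAM1 were called when the filter on low counts was left out. NFKBIZ, CYLD and RIPK1 were called with sg3 and not with sg2, and their differences between the guides were not called either (adjusted p = 0.274, 0.276 and 0.467).

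**Figure D3:**
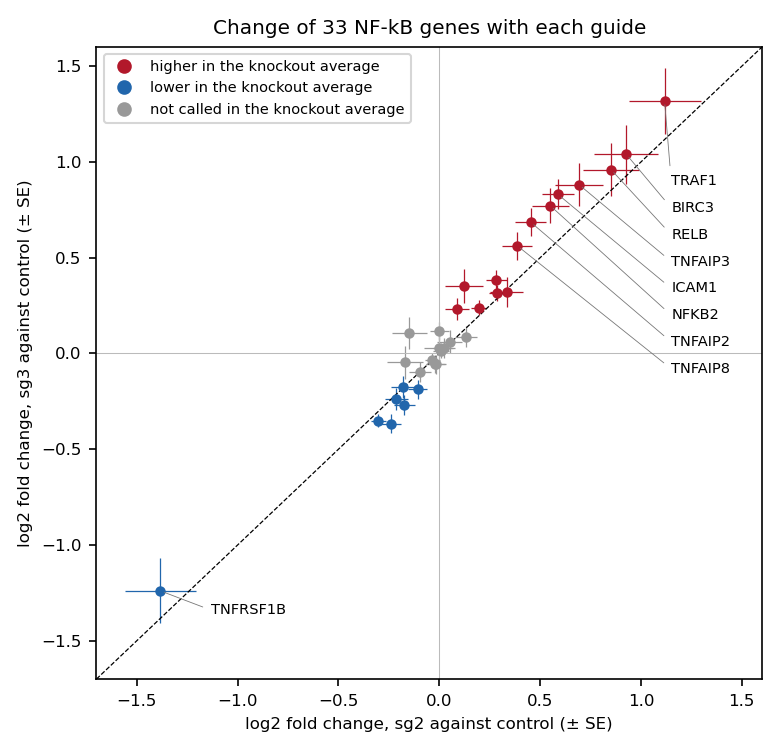
Log2 fold change of each of the 33 tested NF-kB genes with sg2 (horizontal axis) and sg3 (vertical axis) against the shared control libraries. Points are genes coloured by the call in the knockout average, bars are the SE and the dashed line marks equal change. The 8 labelled genes that rose lie above the line, with TRAF1 at 1.12 and 1.32, and TNFRSF1B lies at -1.38 and -1.24.

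The sg2 libraries were not alike. Over the 14 genes that rose, the median difference from control was 0.29 in sg2 library 1 and 0.24 in library 2 on the log2 scale, against 0.65 and 0.56 in libraries 3 and 4 and 0.60 to 0.64 with sg3. In 10 of these 14 genes (71.4%) sg2 libraries 1 and 2 both lay nearer to control than all of the other 6 knockout libraries, and the same held for 35.3% of the 3023 genes that rose among all tested. Of the 7 genes that fell it held for 2, CHUK and IRAK1 (28.6%, against 33.9% of 3118). The shares over all genes were not matched for size of change. Among called genes the median size was larger for NF-kB genes (0.33 against 0.26 on the log2 scale), and the part of this in the shares was not tested. The KDM4C level was lowest in sg2 libraries 1 and 2, at 40.5 and 43.0 CPM, and 49.8 and 55.1 CPM in libraries 3 and 4, so the smaller rises stood in the sg2 libraries with less KDM4C mRNA, and the part of the KDM4C level in this was not tested. With sg2 libraries 1 and 2 left out, the difference between sg3 and sg2 changed sign for NFKB2 (-0.014), RELB (-0.17), TRAF1 (-0.098), BIRC3 (-0.12) and TNFAIP3 (-0.060). The rises against control were called in the average without these libraries, at 0.78 for NFKB2, 1.05 for RELB, 1.37 for TRAF1 and 0.92 for TNFAIP3. These libraries were picked from the same data because they stood nearer to control. Leaving them out favours larger rises and a lower difference of sg3 from sg2, so the sign changes and the calls are a description.

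**Figure D4:**
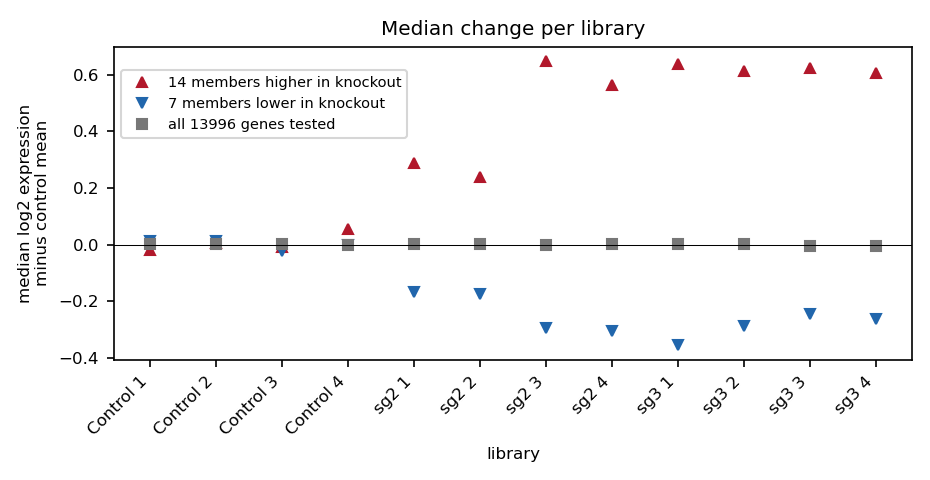
Median log2 expression relative to the control mean (vertical axis) in each library (horizontal axis) for the 14 NF-kB genes that rose, the 7 that fell and all 13996 genes tested. For the rising genes sg2 libraries 1 and 2 stand at 0.29 and 0.24, whereas the remaining 6 knockout libraries stand at 0.56 to 0.65, and the median of all genes stays near 0. The genes were grouped by their call in the same libraries, so the direction of both groups is a description.

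In control cells the levels of these genes covered a wide range. Scaled by exon length, IRAK1 was highest at 50.3 CPM per kilobase of exon, followed by RELA (35.8), TNIP2 (22.3), TAB2 (19.9), MAP3K7 (18.7) and TNFRSF1A (18.5). The ranges of MAP3K7 and TNFRSF1A over the 4 controls overlapped, as did those of BIRC2 (15.0), NFKB1 (15.0) and MYD88 (14.7), which came next. RELA was thus above NFKB1, and the other subunits were lower, with NFKB2 at 9.07, REL at 3.56 and RELB at 2.72 CPM per kilobase. The lowest tested genes were MAP3K14 (1.54), TNFRSF1B (0.717), TRAF1 (0.684), TNFAIP3 (0.653) and BIRC3 (0.292), and the range of TRAF1 overlapped those of TNFRSF1B and TNFAIP3, which did not overlap each other. These last 4 genes of the order in control were, with RELB, the 5 genes whose log2 fold change was largest in size. The order and the changes share the 4 control libraries, so this is a description. Whether low level went with large change over all genes was not tested.

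Further genes of the pathway were read from 3 lists. Of 68 other pathway components 63 were tested, and 19 rose and 8 fell (42.9%, background 43.9%), with a median log2 fold change of 0.046. BCL3, a nuclear IkB protein that pairs with p50 and p52 homodimers, rose by 0.79 ± 0.10 (adjusted p = 1.42e-05), with 10.2 ± 1.31 CPM in control, 17.7 ± 3.19 CPM with sg2 and 18.1 ± 1.63 CPM with sg3. MAP3K8, the kinase held by NFKB1 p105, rose by 0.38, and the ubiquitin ligases PELI1 and PELI2 rose by 0.34 and 0.31. COPS5, a subunit of the COP9 signalosome and the component with the highest level (74.9 CPM per kilobase), changed by -0.16 (adjusted p = 0.0114).

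Of 50 other ligands and receptors 23 were tested, with 8 higher and 3 lower (47.8%, near the background of 43.9%) and a median of 0.17. Without control library 2, and likewise without control library 3, the count called was 7 rather than 11. IL1B, the cytokine interleukin-1β, measured 25.8 to 31.3 CPM in control and 48.6 to 61.3 CPM in the knockout libraries (0.97 ± 0.063, adjusted p = 4.34e-08), and IL1RAP, the shared chain of its receptor, measured 11.5 to 12.7 CPM in control and 17.6 to 25.1 CPM in knockout (0.90 ± 0.080, adjusted p = 4.77e-07). NGFR rose by 0.78 and TLR9 by 1.11 (adjusted p = 0.0391), the latter on 2 to 20 counts per library. LTBR, the lymphotoxin β receptor that feeds the non-canonical arm, had the highest level of the list (40.7 CPM per kilobase) and fell by 0.11 (adjusted p = 0.0262). TNF, with 55 counts over all libraries, and LTA and LTB, with 2 each, were not tested, and all 3 are listed on several sequences of the assembly, so their low counts are not read as absence.

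Of 61 other target genes 34 were tested, with 20 higher and 3 lower (67.6%, background 43.9%) and a median log2 fold change of 0.19. CXCL8, the chemokine interleukin-8, measured 1.19, 0.938, 1.52 and 0.751 CPM in control, 2.73, 2.47, 3.39 and 4.93 CPM with sg2 and 2.44, 2.76, 2.20 and 3.02 CPM with sg3. All knockout values exceeded the controls, and CXCL8 rose by 1.43 ± 0.21 (adjusted p = 4.87e-05). PLAU, a plasminogen activator, rose by 1.06 ± 0.30 in the average and the cyclin CCND1 by 1.02 ± 0.20, from control means of 0.524 and 0.894 CPM. MYC, the target with the highest level (128 CPM per kilobase), measured 572 to 587 CPM in control and 480.0 to 521 CPM in the knockout libraries, a log2 fold change of -0.23 ± 0.029 (adjusted p = 1.5e-05). CCL3, CCL4 and CCL5 had 0 counts in every library and are listed on more than 1 sequence, so they are not read as silent.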

How the data were processed

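Bulk RNA sequencing covered 12 HEL-Cas9 libraries, 4 for control and 4 for each KDM4C guide, grouped by their titles. Per the submitters' processing notes, the authors used Trimmomatic 0.39 for trimming, STAR 2.7.4a for alignment to hg38 and featureCounts 2.0.1 of the Subread package for counting. The paired-end reads were strand-specific, and the options given for counting (-pB) include no strand setting. Counts of genes that overlap on opposite strands may therefore be affected at the shared bases. Values in the deposited table are raw counts of read pairs for each gene, with no normalization. Of its 38571 lines 20 were broken by long cells (6 genes) and left out.

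Counts were tested in R 4.3.3 with edgeR 4.0.16: filterByExpr (minimum count 10, minimum total 15), TMM scaling, and glmQLFit and glmQLFTest with 1 mean per group over all 12 libraries, which gives 13996 genes tested and a common biological coefficient of variation of 6.24%. Adjusted p-values are from this quasi-likelihood test with Benjamini-Hochberg adjustment unless another is named. The SE is the size of the log2 fold change over the square root of F. Log2 expression used a prior count of 2, and levels per kilobase used the exon length in the table. Total counts (10031809 to 78966125) set the precision, and replicates differed by more than sampling noise (reduced chi-square 1.70 to 12.1 over 18 pairs). That spread does not show that the libraries are independent biological replicates, because the study does not say whether the replicates were separate before the vehicle step. Each library counted once in the tests. Positions in the table overlapped GRCh38 genes for 18917 of 18919 compared.

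The genes of the pathway, the further lists and the markers were chosen with earlier results of these data known. All 34 genes are named. Values in every library are given for genes that passed with 1 sign in the average, with sg2 and with sg3, and for all subunits, classical IkB proteins and IKK subunits. From each further list up to 4 called genes with the largest change and the gene with the highest level per kilobase are named, except 1 gene that is not reported here. Alternatives were RLE size factors, no filter, DESeq2 1.42.0, limma-voom (limma 3.58.1), a replicate block, fits on the groups compared only, no sg2 libraries 1 and 2, and leaving out each library.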

Additional observations from a re-analysis of the deposited data

Results flagged for a closer look

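Each of the 33 tested genes was screened in each of the 3 groups of 4 libraries for a library whose gap to its nearest neighbour, relative to the range, exceeds Dixon's critical value for 4 samples. Of the 99 groups 5 had such a library, and chance alone flags about 1 in 20. They were REL in sg2 library 3 at 46.5 CPM (others 43.5 to 43.8), TAB2 in control library 1 at 135 CPM (others 128 to 129), TNFRSF1A in sg3 library 2 at 54.0 CPM (others 52.4 to 52.5), TNFAIP3 in sg3 library 2 at 10.9 CPM (others 9.93 to 10.1) and TNFAIP2 in control library 4 at 61.1 CPM (others 56.9 to 57.4). TAB2, TNFRSF1A, TNFAIP3 and TNFAIP2 kept their calls in the average without the library concerned, with log2 fold changes of 0.24, 0.30, 0.77 and 0.59.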

How the results depend on the processing

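The counts of NF-kB genes called in the average and for each guide stayed within 1.5 times the reported count under every alternative. In the average 26 of the 33 genes kept their direction and call in all alternatives, 22 did for sg2 against control, 28 for sg3 against control and 13 for sg3 against sg2. Calls lost or gained are given beside each gene above, and the remaining changes were of REL without control library 4, called for sg2 (0.18) and sg3 (0.14). For sg3 against sg2 the count over all genes, 1, was 367 without a filter, 119 with DESeq2, 18 with limma-voom, 0 without sg2 libraries 1 and 2, 0 in a fit on these groups only and 0 to 201 when 1 library was left out, while NF-kB genes called rose from 0 to 2 without a filter. Calls among the other ligands and receptors, 11, ranged from 7 to 11 when 1 library was left out, the lowest without control library 2 or 3. The cause of these changes was not tested.

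No pairing by replicate number was seen. Deviations from the group means correlated between -0.167 and 0.180 for same-numbered libraries, with 1 of 12 pairs above 0.1. For libraries of different numbers they correlated between -0.218 and 0.208, with 8 of 36 pairs above 0.1. Such deviations rest on means of 4 libraries and hold the splits within groups, so they cannot exclude a pairing. With the replicate number as a block, 25 genes were called for sg3 against sg2 and 42.6% of all genes in the average. A fit on the groups compared only is the reported fit for the average, so it gave no further value there.

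Changes of sign were confined to values that were not called as reported. Without sg2 libraries 1 and 2, log2 fold changes of reversed sign were 0.0037 for MAP3K14, -0.0060 for MAP3K7 in the knockout average, and -0.030 for MAP3K7, -0.021 for BCL10 for sg2 against control, and 0.0063 for NFKB1, -0.014 for NFKB2, -0.17 for RELB, -0.021 for IKBKB, -0.082 for IKBKG, -0.023 for TNFRSF1A, -0.098 for TRAF1, -0.12 for BIRC3, -0.060 for TNFAIP3, -0.013 for TNIP1, -0.014 for TNFAIP8 for sg3 against sg2. The change of RELA for sg2 was -0.00082 with DESeq2, -0.00032 with RLE size factors and -0.0061 without a filter. With limma-voom they were -0.0022 for RELA for sg2 against control, and 0.0091 for NFKBIA, -0.015 for MYD88, 0.0078 for TNIP2 for sg3 against sg2. When 1 library was left out, the ranges that crossed 0 were -0.034 to 0.045 for NFKBIE, -0.035 to 0.0018 for MAP3K14, -0.011 to 0.026 for MAP3K7 in the knockout average, -0.050 to 0.017 for NFKB1, -0.015 to 0.023 for RELA, -0.052 to 0.029 for NFKBIE, -0.036 to 0.034 for MAP3K7, -0.047 to 0.019 for BIRC2 for sg2, -0.017 to 0.061 for NFKBIE, -0.11 to 0.0089 for TRAF6 for sg3, and -0.039 to 0.22 for RELB, -0.053 to 0.037 for NFKBIA, -0.0047 to 0.064 for NFKBIE, -0.016 to 0.014 for IKBKB, -0.029 to 0.049 for IKBKG, -0.016 to 0.051 for MAP3K7, -0.030 to 0.050 for MYD88, -0.060 to 0.014 for TRAF2, -0.024 to 0.23 for BIRC3, -0.024 to 0.034 for BCL10, -0.028 to 0.037 for TNIP2 for sg3 against sg2.

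Depth limited the genes with few counts, such as TNFRSF1B (10 to 293 per library) and TLR9 (2 to 20), and NFKBIB could not be tested. Only mRNA was measured, so the data hold neither protein levels nor nuclear NF-kB. Both guides share 4 control libraries, and other scalings moved the median of all genes by less than 0.01 on the log2 scale.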
